A study of Homo sapiens with 6 samples.

Results

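The genes examined here were 37 genes of the NF-kB pathway and of the cytokines and chemokines tied to it, among the 32679 genes of the deposited table. They were chosen by name, and all 37 had a row. They comprised 6 chemokines of the ELR+ CXC group, 5 other chemokines, 11 interleukins and other cytokines, 6 inhibitors and TNF-induced regulators, the 5 Rel subunits, and 4 further genes (3 effector targets and the receptor IL1R1). SOD2 was listed under 2 gene identifiers, so that 38 rows were read. The row of SOD2 that passed the filter was used, and the other stayed at an FPKM of 0.05 or below.

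RNA-seq was carried out on HEY cells, an established line of human ovarian cancer. The 3 shNC samples carried a control hairpin and were labelled as untreated. The 3 shPQBP1 samples carried a hairpin against PQBP1 and had received doxycycline at 1 µg/ml. All 6 samples were labelled day 3, and the methods describe stable lentiviral lines, selected with puromycin, whose knockdown was induced with doxycycline. By the labels, therefore, the hairpin and doxycycline differed together and cannot be told apart. PQBP1 is a splicing factor, and the study asked how its loss alters gene expression in ovarian cancer cells.

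NF-kB is a family of dimers built from the Rel subunits RELA, RELB, REL, NFKB1 and NFKB2. In resting cells inhibitors such as NFKBIA hold the dimers in the cytoplasm. Signals from TNF, interleukin-1 or microbial products activate the IKK kinase complex, which marks the inhibitor for degradation, and the freed dimers bind kappa B sites in promoters and enhancers. Their targets include CXC chemokines, IL6, IL1B and the inhibitors themselves, which close a feedback loop. In ovarian cancer the pathway is known for secreted factors such as CXCL8 and IL6, which act on blood vessels, on leukocytes and on the tumour cells.

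Levels are given as FPKM, a count of fragments scaled to the length of the transcript and to the fragments mapped in the sample, and so a level per length. Differences are log2 fold changes of shPQBP1 against shNC on the log2(FPKM + 0.1) scale, with the standard error (SE) of the limma fit and a p adjusted over the 11413 genes whose FPKM averaged 1 or more over the 6 samples. PQBP1 itself was at 7.18, 6.67 and 6.93 FPKM in the shNC samples and at 1.68, 1.72 and 1.44 in the shPQBP1 samples. Its level fell in shPQBP1, with a log2 fold change of -2.04 (SE 0.10, adjusted p = 0.00154). The correlation of log2 levels between samples was 0.926 to 0.969, with shNC 1 lowest at 0.926 to 0.955. The depth of the samples is unknown, because the table gives FPKM alone and no whole-read steps were found among its low values. KRT7, KRT8 and KRT18, keratins of simple epithelium, were at 52.8 to 94.6 FPKM in the 6 samples, and PAX8, a transcription factor of the Müllerian tract, was at 12.3 to 24.1. MUC16 and CDH1, which mark many ovarian carcinomas, stayed at 0.06 or below. Of 5 leukocyte markers in the table none passed the filter. Their summed FPKM was 0.63 to 0.77 in shNC and 0.34 to 0.43 in shPQBP1. Most of it was ITGAM, with means of 0.57 and 0.27. LYZ averaged 0.06 and 0.01, CD14 0.03 and 0.08 and CD163 0.03 and 0.037. PTPRC, the pan-leukocyte marker, was at 0 in every sample.

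Of the 37 genes, 29 passed the filter on low values and 8 did not. At an adjusted p under 0.05, CXCL8, IL1B, IL6 and CSF3 rose and IL11 fell in shPQBP1, which is 5 of 29 (17.2%) against 2.91% of all genes tested. At an unadjusted p under 0.05 there were 15 of 29 (51.7%), against 23.6% of all genes. Of these 9 were higher and 6 were lower in shPQBP1, where 11.9% of all genes were higher and 11.7% lower. IL1B, CSF3 and IL11 changed by a fold of over 2 and also had an unadjusted p under 0.05, 3 of 29 (10.3%) against 1.52% of all genes. The 3 values of one group lay wholly above or below those of the other in 15 genes (51.7%), 8 higher and 7 lower, against 34.4% of all genes. The median log2 fold change of the 29 was 0.06, beside 0.02 over all genes tested, with 17 genes above 0 and 12 below. The filter used the mean of all 6 samples, so a gene high in 1 group only could enter through that group. The labels do not say that the samples of a group came from separate cultures, so the p-values measure the spread between these samples. In bulk RNA, fewer cells of a type and less RNA per cell cannot be told apart.

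**Figure D1:**
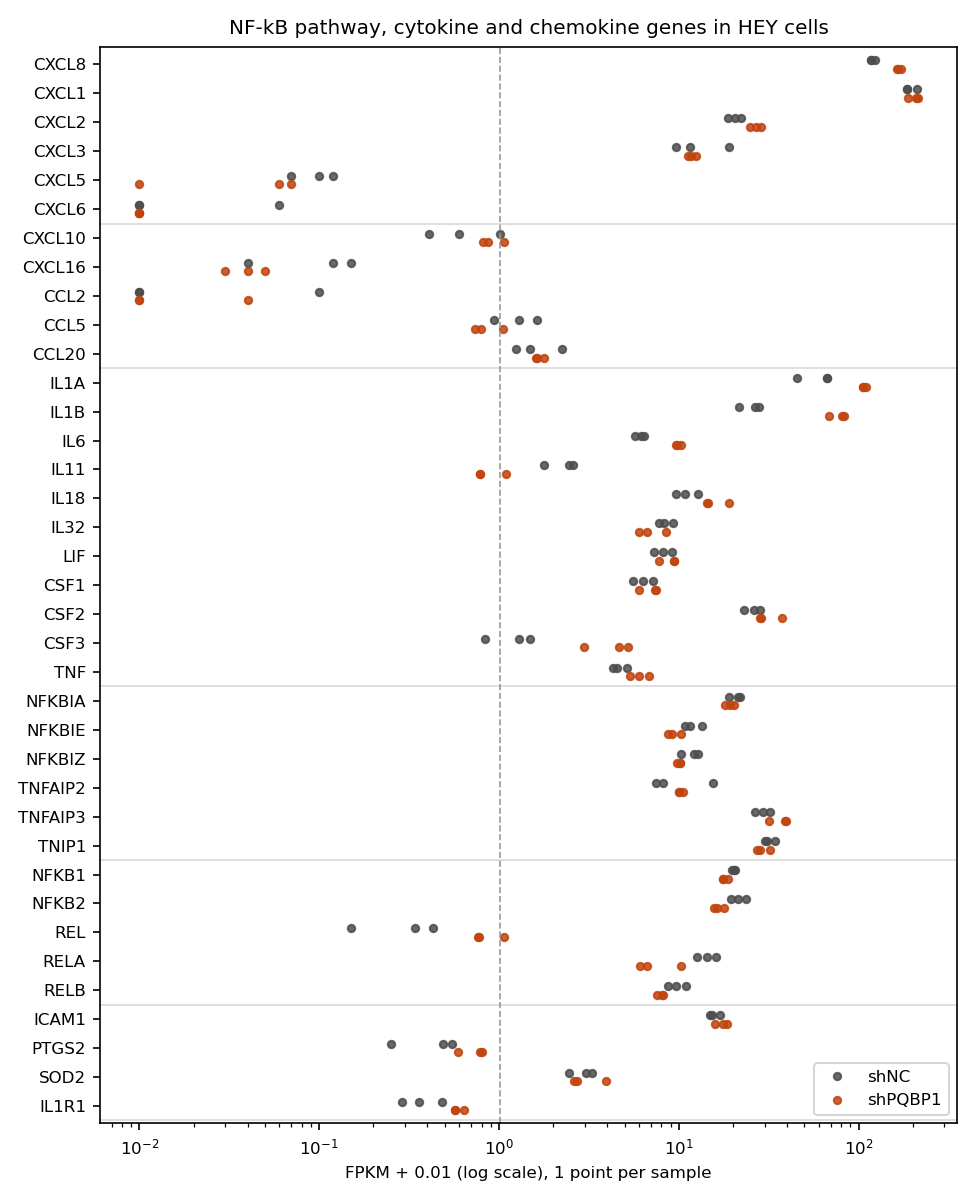
FPKM + 0.01 on a log axis for each of the 37 genes, 1 point per sample, in grey for shNC and orange for shPQBP1, grouped by role. The dashed line marks the filter at an FPKM of 1. CXCL1 and CXCL8 were the highest, and the 8 genes left untested had means left of that line.

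**Figure D2:**
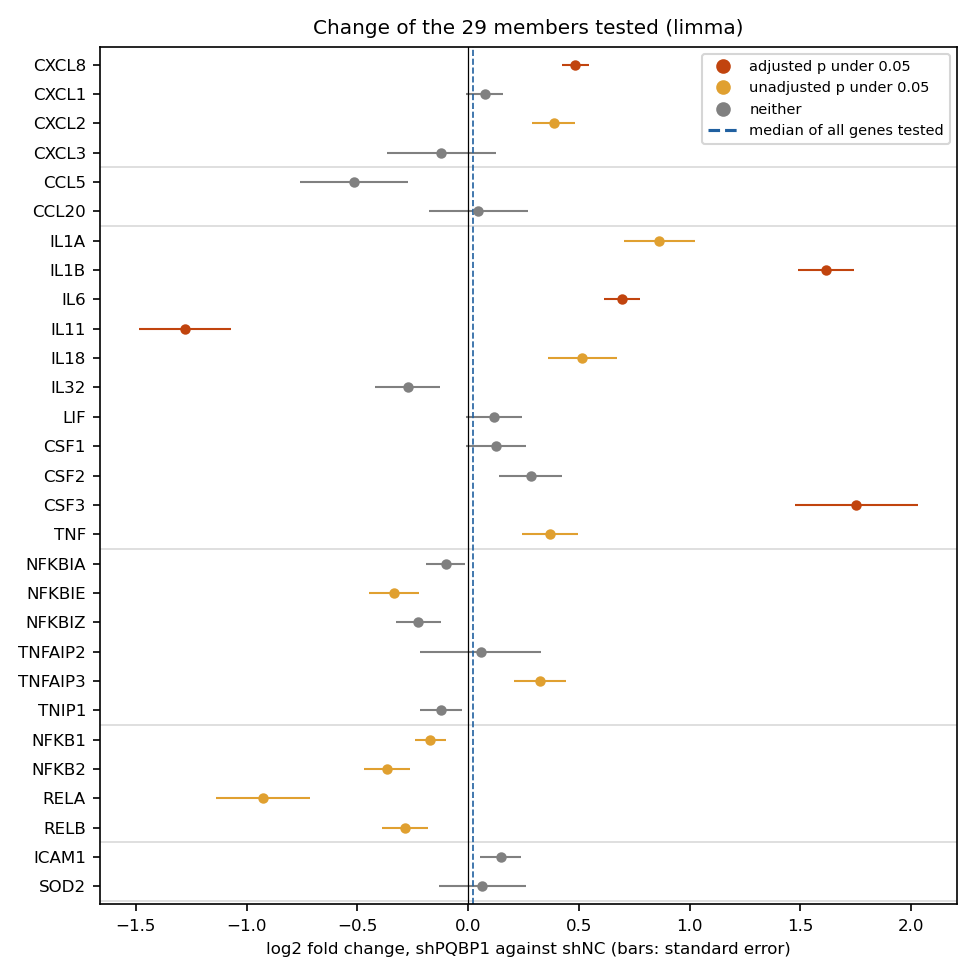
log2 fold change of the 29 genes tested, shPQBP1 against shNC, with the standard error as bars, coloured by whether the adjusted or only the unadjusted p was under 0.05. The dashed line is the median of all genes tested (0.02). IL1B and CSF3 lay furthest to the right and IL11 furthest to the left, and all 4 Rel subunits tested lay left of 0.

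The Rel subunits were lower in shPQBP1 in 4 of 4 genes tested, each at an unadjusted p under 0.05 and none at an adjusted p under 0.05 (median log2 fold change -0.33). Of all genes tested, 11.7% were lower at such an unadjusted p. With the trend on GC content and length removed, 3 of the 4 kept an unadjusted p under 0.05 and RELB did not. In all, 3165 of 11385 genes had such a p after that correction. RELA encodes the subunit with the main transactivating domain of the classical pathway. Its level was 16.1, 12.7 and 14.3 FPKM in shNC and 6.07, 6.69 and 10.3 in shPQBP1. The groups did not overlap, and shPQBP1 3 stood nearest to the shNC samples. The log2 fold change was -0.92 (SE 0.21, adjusted p = 0.0749). NFKB2, whose precursor is processed in the non-canonical pathway, was at 23.8, 19.4 and 21.3 FPKM in shNC and at 16.3, 17.8 and 15.6 in shPQBP1 (log2 fold change -0.37, adjusted p = 0.114). RELB, the usual partner of NFKB2, was at 10.9, 8.71 and 9.60 FPKM in shNC and at 8.18, 7.60 and 8.08 in shPQBP1 (-0.28 on the log2 scale, adjusted p = 0.175). For both, all 3 shPQBP1 samples lay below all 3 shNC samples. NFKB1, the source of the DNA-binding partner of RELA, was at 20.3, 19.8 and 20.7 FPKM in shNC and at 17.7, 18.8 and 17.5 in shPQBP1. That is a difference of -0.17 on the log2 scale (adjusted p = 0.210).

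REL, the fifth subunit, stood below the filter and is named here after its values were seen. Its level was 0.14, 0.42 and 0.33 FPKM in shNC and 1.06, 0.75 and 0.76 in shPQBP1. The groups did not overlap, in the opposite order to the other subunits, and in a fit without the filter its log2 fold change was 1.33 (adjusted p = 0.184). The summed FPKM of the 5 subunits was 66.1 ± 5.10 in shNC and 51.1 ± 1.56 in shPQBP1 (SD, n = 3). RELA made up 21.7% ± 0.902 of that sum in shNC and 15.0% ± 4.09 in shPQBP1 (SD, n = 3), and REL 0.461% and 1.68%. The 3 values of each group were separate for the sum and for both shares, for which the exact permutation test gave p = 0.1, the smallest it can give with 3 against 3 samples.

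The inhibitors and TNF-induced regulators went in both directions: 2 of 6 were higher and 4 lower in shPQBP1, none at an adjusted p under 0.05, with a median log2 fold change of -0.11. NFKBIA, the inhibitor that NF-kB itself induces, was at 21.3, 19.0 and 21.8 FPKM in shNC and at 19.4, 20.4 and 18.1 in shPQBP1. These groups overlapped, and the log2 fold change was -0.10 (adjusted p = 0.493). NFKBIE, a further inhibitor of this family, was at 13.4, 10.8 and 11.5 FPKM in shNC and at 8.74, 10.3 and 9.18 in shPQBP1 (log2 fold change -0.33, adjusted p = 0.154). TNFAIP3, the ubiquitin-editing enzyme A20 that shuts the pathway off, was at 26.7, 29.3 and 32.0 FPKM in shNC and at 39.1, 39.6 and 31.9 in shPQBP1. Its shPQBP1 3 sample lay inside the shNC range, and the log2 fold change was 0.32 (adjusted p = 0.172). NFKBIZ, an atypical nuclear member of the inhibitor family, did not overlap between groups, with 10.3 to 12.8 FPKM in shNC and 9.83 to 10.2 in shPQBP1 (adjusted p = 0.238). TNIP1 and TNFAIP2, the latter at 7.48 to 15.6 FPKM in shNC, overlapped.

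The 6 ELR+ CXC chemokine genes draw neutrophils and act on blood vessels through shared receptors. They lie within 358.7 kb on chromosome 4 (hg38, chr4:73740519-74099196). Their RefSeq promoters (GRCh38.p14), each 250 bases before to 50 bases after the gene's start, are shown because all 6 share 1 run of 9 bases, GGAATTTCC, the longest run common to them. It has the form of a kappa B site. The run was taken from these 6 promoters, so that its presence in them is given by the choice. The windows below run 25 bases to each side of it on the gene's strand, with the run in capitals.
CXCL8 (chr4:73740453-73740511, plus strand): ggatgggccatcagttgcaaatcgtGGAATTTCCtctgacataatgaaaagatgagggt
CXCL1 (chr4:73869290-73869348, plus strand): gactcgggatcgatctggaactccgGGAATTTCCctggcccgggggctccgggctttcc
CXCL2 (chr4:74099239-74099297, minus strand): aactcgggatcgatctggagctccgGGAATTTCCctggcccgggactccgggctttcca
CXCL3 (chr4:74038734-74038792, minus strand): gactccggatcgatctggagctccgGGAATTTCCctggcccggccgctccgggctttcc
CXCL5 (chr4:73998734-73998792, minus strand): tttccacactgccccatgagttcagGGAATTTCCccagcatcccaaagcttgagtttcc
CXCL6 (chr4:73836564-73836622, plus strand): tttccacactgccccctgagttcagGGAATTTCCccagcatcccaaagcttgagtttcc

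The run began 77 to 91 bases before the start in the 6 genes. The flanks were alike within CXCL1, CXCL2 and CXCL3 and within CXCL5 and CXCL6, while those of CXCL8 differed from both. On either strand the run was in 162 of 35116 RefSeq promoters (0.461%) and in 12 of the 28 genes that had a promoter entry, the 6 that defined it and CXCL10, NFKBIA, NFKBIZ, NFKB1, REL and ICAM1. A wider kappa B consensus of 10 bases, which can overlap the run, was in 11.3% of all promoters and in 16 of the 28. Altogether 5 forms of the motif were searched before these were kept, and the other 3 were in 5.37%, 14.0% and 58.7% of all promoters. The genes had been picked as NF-kB targets and regulators, so a high share among them is not independent of that choice. The matches of NFKBIA and IL6 are shown for the feedback inhibitor and for a cytokine that rose, with the match in capitals; that of NFKBIA lies on the opposite strand, and that of IL6 is to the wider consensus.
NFKBIA (chr14:35404797-35404855, minus strand): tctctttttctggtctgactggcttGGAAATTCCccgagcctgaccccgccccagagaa
IL6 (chr7:22727102-22727161, plus strand): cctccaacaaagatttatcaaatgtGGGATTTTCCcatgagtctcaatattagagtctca

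**Figure D3:**
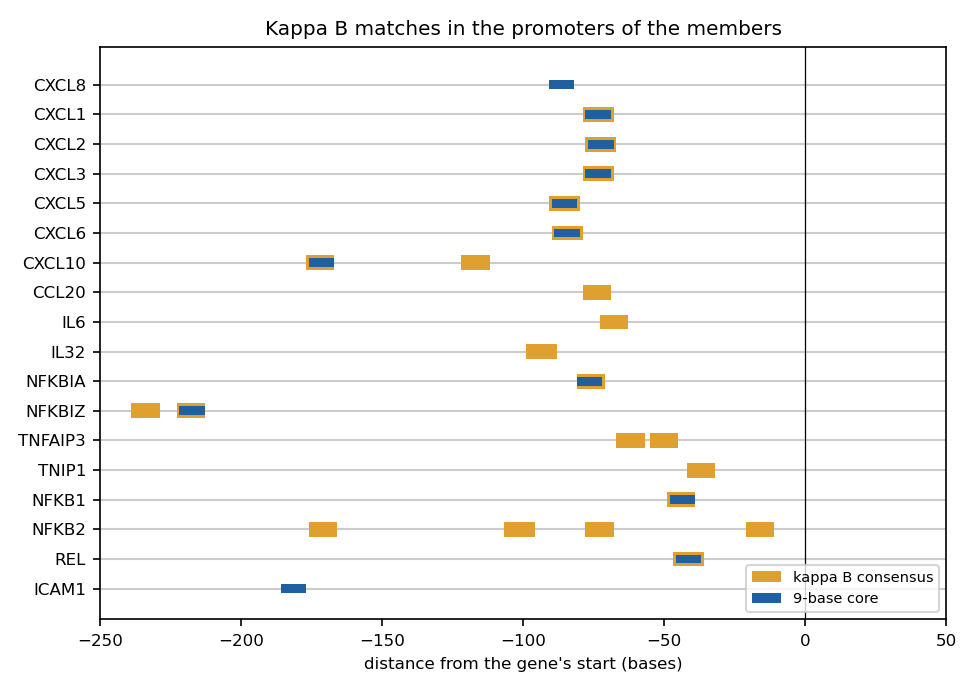
Positions of kappa B matches in the promoters of the 18 genes that held any, in bases from the gene's start at 0. Blue marks the 9-base run and yellow the wider consensus, on either strand. In the ELR+ CXC genes the run began 77 to 91 bases before the start.

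The genes with this run differed in the direction of their values. Of the 8 tested genes whose promoter held it, CXCL8 and CXCL2 were higher and NFKB1 lower at an unadjusted p under 0.05. Of the 14 tested genes whose promoter entry did not hold it, 5 were higher (IL1A, IL1B, IL6, TNF and TNFAIP3) and 3 lower (IL11, NFKB2 and RELA). Of all genes tested, 11.9% were higher and 11.7% lower at such a p. By the wider consensus, 3 were higher and 2 lower of 12 tested genes with a match, and 4 and 2 of 10 without. CSF3, IL18, NFKBIE and RELB, also at such a p, had no promoter entry. A match is a description of letters in this window, and enhancers outside it were not searched.

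Among these chemokines CXCL8 rose and CXCL1, the highest gene of all 37, did not pass the test. CXCL8, a neutrophil attractant and angiogenic factor, was at 117, 118 and 124 FPKM in shNC and at 165, 172 and 164 in shPQBP1. The 2 groups were tight and well apart, and the log2 fold change was 0.48 (SE 0.06, adjusted p = 0.0189). With the trend on GC content and length removed, the CXCL8 difference was 0.17 (adjusted p = 0.595), which ended the call. CXCL2 was at 22.3, 18.7 and 20.5 FPKM in shNC and at 24.8, 28.7 and 26.9 in shPQBP1, without overlap (log2 fold change 0.39, adjusted p = 0.0932). CXCL1 was at 186 to 210.2 FPKM in shNC and 189 to 214 in shPQBP1 (log2 fold change 0.07, adjusted p = 0.592). The ratio of CXCL1 to CXCL8 FPKM was 1.63 ± 0.155 in shNC and 1.22 ± 0.085 in shPQBP1 (SD, n = 3). CXCL3 was at 9.67 to 19.1 FPKM in shNC, where shNC 1 stood above all other samples, and at 11.2 to 12.5 in shPQBP1. CXCL5 and CXCL6 stayed at 0.11 FPKM or below. The transcripts of CXCL1 and CXCL2 were identical at 91.3% of 1081 aligned bases, CXCL3 matched them at 84.5% and 84.7%, and CXCL5 matched CXCL6 at 84.0%. How the authors' counting divided reads among such copies is not given in the sources used here, so the split between these genes is uncertain.

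None of the other chemokines passed either threshold. CCL20, which draws cells with the receptor CCR6, was at 1.23 to 2.24 FPKM in shNC and 1.59 to 1.76 in shPQBP1. CCL5, a T cell attractant, was at 0.93 to 1.61 and 0.73 to 1.04. CXCL10, CXCL16 and CCL2 were below the filter, at 1.06 FPKM or less in every sample.

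The cytokines held the largest changes: 9 of 11 were higher in shPQBP1, with a median log2 fold change of 0.37. At an adjusted p under 0.05 there were 3 higher and 1 lower (36.4%, against 2.91% of all genes tested). At an unadjusted p under 0.05 there were 6 higher and 1 lower (63.6%, against 23.6% of all genes tested). Their summed FPKM was 159 ± 4.66 in shNC and 276 ± 16.4 in shPQBP1 (SD, n = 3), most of it from IL1A and IL1B.

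IL1B, a secreted pro-inflammatory cytokine made as an inactive precursor, was at 27.8, 26.4 and 21.7 FPKM in shNC and at 68.3, 82.8 and 81.4 in shPQBP1. Every shPQBP1 sample lay far above every shNC sample. The log2 fold change was 1.62 (SE 0.13, adjusted p = 0.00493), a ratio of group means of 3.07. It was 1.60 with the GC content and length trend removed. IL1A, which signals through the same receptor and lies beside IL1B within 62.9 kb on chromosome 2 (hg38, chr2:112773925-112836816), was at 45.4, 67.0 and 66.9 FPKM in shNC and at 110, 106 and 105 in shPQBP1. Here shNC 1 stood below the other 2 controls, and all shPQBP1 samples lay above all shNC samples. The log2 fold change was 0.86 (SE 0.16, adjusted p = 0.0508), and without shNC 1 it was 0.68 (adjusted p = 0.00836). The ratio of IL1A to IL1B FPKM was 1.63, 2.54 and 3.09 in shNC and 1.28 to 1.61 in shPQBP1. IL1R1, the receptor of both, was low, at 0.28, 0.35 and 0.47 FPKM in shNC and 0.56, 0.56 and 0.63 in shPQBP1, and did not pass in a fit without the filter (log2 fold change 0.57, adjusted p = 0.365).

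IL6, a cytokine that signals through STAT3, was at 6.18, 5.71 and 6.41 FPKM in shNC and at 9.69, 10.3 and 9.77 in shPQBP1. The values within each group were close together, and the log2 fold change was 0.69 (SE 0.08, adjusted p = 0.0181). CSF3, which drives the making of neutrophils, was at 0.83, 1.47 and 1.28 FPKM in shNC and at 4.64, 5.19 and 2.98 in shPQBP1. It rose by 1.75 on the log2 scale (SE 0.28, adjusted p = 0.0334), at a low level. The order of CSF3 and IL1B by fold change turned with a pseudocount of 1 (1.25 for CSF3 and 1.58 for IL1B), without shNC 1 (1.53 and 1.69) and without shPQBP1 1 (1.68 and 1.70). IL11, a cytokine of the IL6 family that shares its signalling subunit, went the other way, from 2.58, 1.78 and 2.43 FPKM in shNC to 0.77, 1.08 and 0.77 in shPQBP1. It fell by 1.28 on the log2 scale (SE 0.21, adjusted p = 0.0343). With a pseudocount of 1 in place of 0.1 its log2 fold change was -0.80, which is below a fold of 2 (adjusted p = 0.0322).

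IL18, a cytokine activated like IL1B, was at 12.8, 9.60 and 10.9 FPKM in shNC and at 14.4, 19.0 and 14.5 in shPQBP1 (log2 fold change 0.52, adjusted p = 0.130). TNF, a main inducer of the pathway, was at 4.55, 4.29 and 5.16 FPKM in shNC and at 5.34, 6.85 and 6.03 in shPQBP1 (log2 fold change 0.37, adjusted p = 0.153). In both genes the groups did not overlap, and neither passed at an adjusted p. CSF2, IL32, LIF and CSF1 overlapped between the groups, with log2 fold changes of 0.28, -0.27, 0.12 and 0.13. Of the effector targets, ICAM1, an adhesion molecule for leukocytes, was at 14.9 to 16.9 FPKM in shNC and 16.0 to 18.6 in shPQBP1. SOD2, the mitochondrial superoxide dismutase, was at 2.44 to 3.27 and 2.61 to 3.94. PTGS2, the inducible cyclooxygenase, was below the filter, at 0.24 to 0.54 and 0.58 to 0.79.

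**Figure D4:**
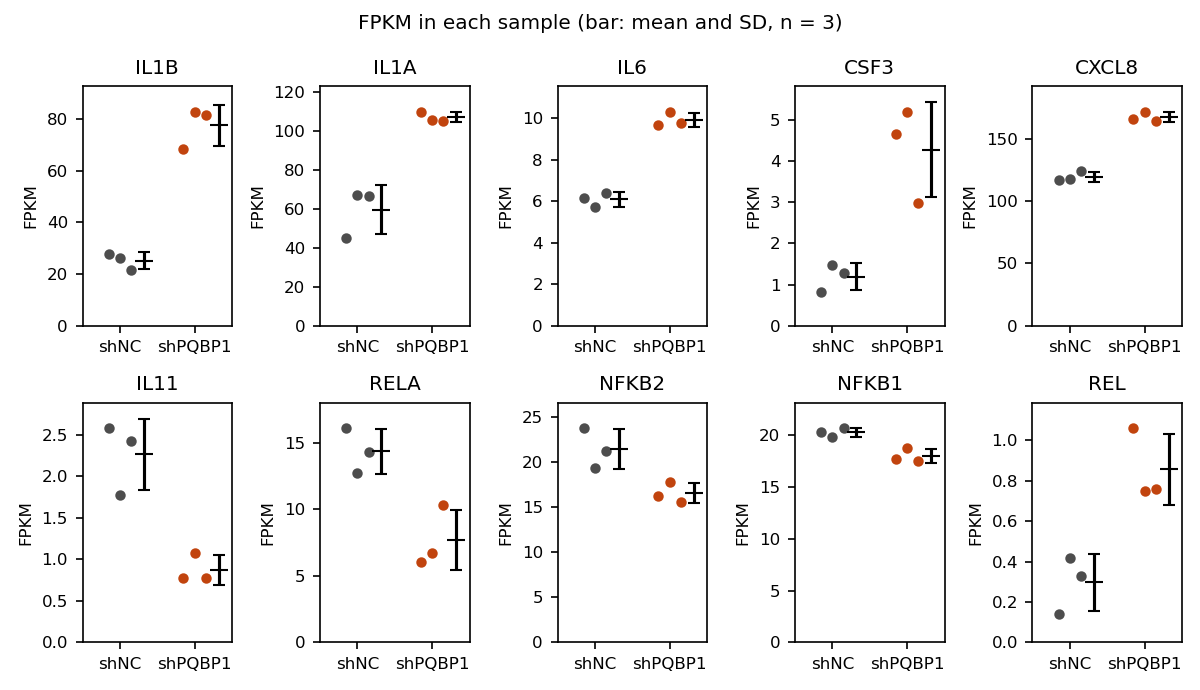
FPKM of 10 genes in each sample, with the mean and SD of the 3 samples beside the points; each vertical axis starts at 0. IL1B, IL1A, IL6, CSF3, CXCL8 and REL were higher in every shPQBP1 sample than in every shNC sample, and IL11, RELA, NFKB2 and NFKB1 were lower.

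Most of the adjusted calls depended on which samples were in the fit, and each fit with a sample left out also had fewer samples. Without shNC 3, PQBP1 itself had an adjusted p of 0.0199 in limma. In that fit CXCL8 was at 0.51 and IL6 at 0.73 on the log2 scale. IL1B passed with each of the 6 samples left out in turn. CXCL8, IL6 and CSF3 passed without shNC 1 and lost the call without any other sample, and IL11 lost it without any sample, so that the count was 1 without shNC 2, shNC 3 or any shPQBP1 sample, and 5 without shNC 1, where IL1A passed.

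The differences moved with the GC content of the transcripts. Over all genes tested Spearman's rho of log2 fold change and GC content was -0.459, and over the 28 genes here with a transcript in GENCODE release 44 it was -0.485; genes share their libraries and are not independent. The 9 genes higher at an unadjusted p under 0.05 had a median GC content of 44.7% (32.9% to 59.4%), and the 6 lower genes one of 59.5% (50.1% to 64.9%), beside 47.5% over all genes tested. With the trend on GC content and length removed, 5 of the genes again had an adjusted p under 0.05, with IL1A in and CXCL8 out. Over all genes, 332 of 11413 had such a p before this correction and 1006 of 11385 after it. IL1B was then at 1.60 (adjusted p = 0.00328), IL6 at 0.57 (adjusted p = 0.0184) and IL11 at -1.17 (adjusted p = 0.0177) on the log2 scale, and CSF3 was again higher (adjusted p = 0.0242). The subunit RELA was at -0.78, NFKB2 at -0.22 and the inhibitor NFKBIE at -0.17. At an unadjusted p under 0.05 there were again 15 genes, beside 3165 of 11385 genes in all. CSF2, NFKBIZ and ICAM1 were added, while CXCL8, IL18 (0.38) and RELB (-0.10) were lost.

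**Figure D5:**
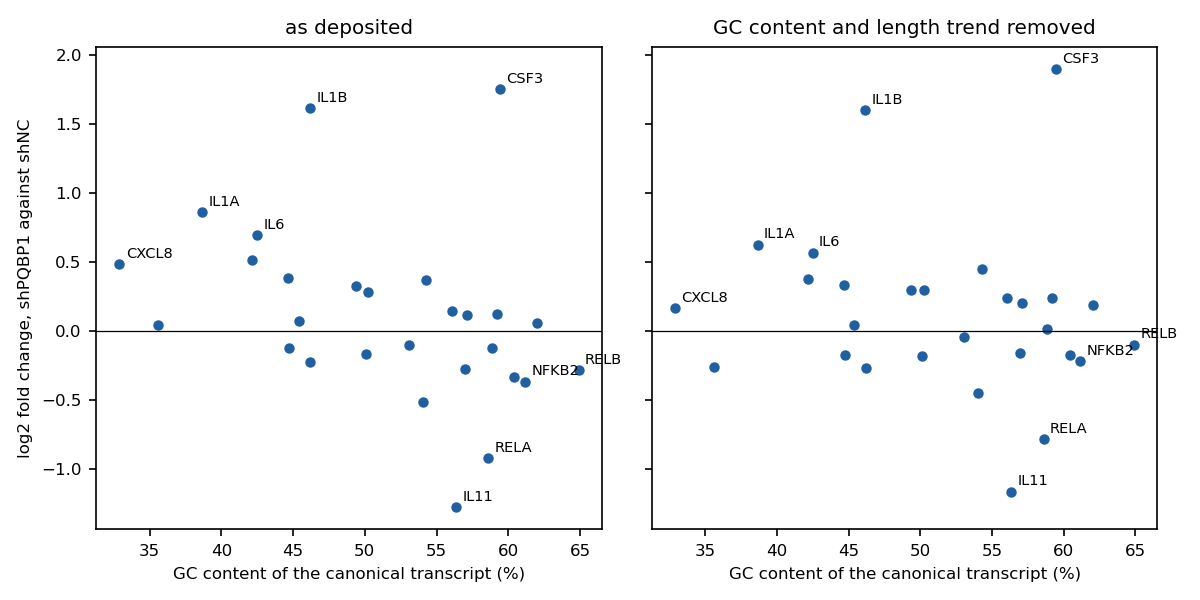
log2 fold change, shPQBP1 against shNC, against the GC content of the canonical transcript (%) for the 28 genes with one, as deposited on the left and with the GC content and length trend removed on the right, 1 point per gene. IL1B, CSF3 and IL11 stayed apart from 0 in both panels, and CXCL8 moved from 0.48 to 0.17.

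Genes at other steps of the pathway were read from fixed lists. Of 15 tested receptors and adaptors upstream of IKK, 2 had an unadjusted p under 0.05, both lower in shPQBP1 (13.3%, beside 23.6% of all genes): TAB1, an adaptor of the kinase TAK1, at 3.86 and 2.77 FPKM (log2 fold change -0.46, adjusted p = 0.0653), and LTBR, the lymphotoxin beta receptor, at 10.9 and 8.73 (-0.32, adjusted p = 0.0818). Of the 14 genes of the IKK complex and its regulators 4 had an unadjusted p under 0.05, all lower (28.6%, near the 23.6% of all genes), with a median log2 fold change of -0.15. The lowest p among them was that of IKBKB, a catalytic kinase subunit, at 3.05 ± 0.127 FPKM in shNC and 2.28 ± 0.0265 in shPQBP1 (SD, n = 3), followed by RBCK1, a subunit of the linear ubiquitin ligase, at 5.90 ± 0.429 and 4.76 ± 0.258 (SD, n = 3); neither passed after adjustment. With the GC content and length trend removed, IKBKB was at -0.39 (adjusted p = 0.0446) and IL1RAP, a co-receptor of interleukin-1, at -0.38 (adjusted p = 0.0373). Without that correction IL1RAP was at -0.08 (adjusted p = 0.779). LTBR at -0.15 and RBCK1 at -0.17 no longer had an unadjusted p under 0.05 after it. Of 16 further NF-kB targets 3 were higher and 3 lower (37.5%), and BCL2A1, an anti-apoptotic BCL2 relative, rose from 18.6 ± 1.53 to 32.0 ± 1.45 FPKM (SD, n = 3), 0.78 on the log2 scale (adjusted p = 0.0154). None of the 3 tested receptors of the listed cytokines passed an unadjusted p under 0.05 in limma.

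Interferon response genes were read beside them because that pathway shares inducers with NF-kB. Of 14 tested, 1 was higher and 4 were lower at an unadjusted p under 0.05 (35.7%, beside 23.6% of all genes). With the GC content and length trend removed there were 10 of 14, where 3165 of 11385 genes in all had such a p, and IFI6, an interferon-induced mitochondrial protein, was at 0.53 (adjusted p = 0.0417). MX1, an antiviral GTPase, fell from 3.39 ± 0.283 to 0.94 ± 0.121 FPKM (SD, n = 3), by 1.75 on the log2 scale (adjusted p = 0.00479). IFIT2, an interferon-induced RNA-binding protein, rose from 6.20 ± 1.03 to 13.6 ± 0.573 FPKM (SD, n = 3), by 1.14 on the log2 scale (adjusted p = 0.0181). Of the marker lists, CDH5, of endothelium, was the 1 tested gene of 6 fibroblast and endothelial markers, at 2.52 FPKM in shNC and 3.43 in shPQBP1 (adjusted p = 0.151). Below the filter, PECAM1, also of endothelium, was at 0.24 and 0.0367 FPKM, and PDGFRB, of mural cells and fibroblasts, at 0.113 and 0.0200, both lower without overlap. In a fit without the filter neither passed (adjusted p = 0.0628 for PECAM1 and 0.112 for PDGFRB). Of the ovarian carcinoma markers, PAX8 was at 14.3 FPKM in shNC and 20.8 in shPQBP1 (adjusted p = 0.102, and 0.0284 with the GC content and length trend removed). WT1, a transcription factor of serous carcinoma, went the other way below the filter, at 0.673 and 0.367 FPKM without overlap (log2 fold change -0.74 and adjusted p = 0.212 in a fit without the filter). With the GC content and length trend removed, 3 of the 4 tested carcinoma markers had an adjusted p under 0.05, beside 1006 of 11385 genes. Besides PAX8 these were KRT18 at 0.27 (adjusted p = 0.0386) and KRT8 at 0.25 (adjusted p = 0.0439). KRT7 did not pass (adjusted p = 0.928).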

How the data were processed

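RNA-seq of 6 HEY samples, 3 shNC and 3 shPQBP1, was analysed from the gene table. Per the labels and the study's methods, the authors used HISAT2 (version 2.2.0) for mapping to hg38, SAMtools (version 1.9) for sorting, StringTie (version 1.3.0) for transcript assembly and edgeR for the comparison of groups. The deposited FPKM values were used as given. The annotation release is not given in the sources used here. The authors' columns of fold changes, p-values and q-values were not used. Depth is unknown, and the spread between samples stands for all error.

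The 11413 of 32679 genes whose FPKM averaged 1 or more were tested on log2(FPKM + 0.1) in R (version 4.3.3) with the two-sided moderated test of limma (version 3.58.1), allowing for a mean-variance trend. The p-values were adjusted over all of them by Benjamini-Hochberg. Single sums were compared with an exact two-sided permutation test. The steps were tested on simulated data. The genes and lists were chosen with earlier results of these data known. Values in every sample are given for PQBP1, for genes with an unadjusted p under 0.05 or an absolute log2 fold change of at least 1, and for CXCL8, IL6, NFKBIA, TNFAIP3, NFKB1, RELA, TNF and IL1R1; of each other list, genes at an adjusted p under 0.05 are named, or else up to 2 at an unadjusted p under 0.05. REL, NFKBIZ, PTGS2, PECAM1, PDGFRB, WT1, IFI6, IL1RAP, IER3, PLAU and TNFRSF9 were named after their values were seen, as were the genes used to describe the cells. Alternatives were other scalings, filters and pseudocounts, no trend, a replicate block, each sample left out, and removal of the trend on GC content and length (GENCODE release 44, 11385 genes, natural splines with 5 degrees of freedom). Promoters came from RefSeq, had an entry for 28 of the 37 genes and were searched with Python (version 3.11.15). Transcripts were aligned with biopython (version 1.88).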

Additional observations from a re-analysis of the deposited data

How the results depend on the processing

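The count of 5 genes at an adjusted p under 0.05 was 3 without a filter, 3 at a mean FPKM of at least 10, 0 with the replicate number as a block and 0 with the block and the GC correction together, and 1 to 5 with each sample left out. The count of 3 past a fold of 2 was 1 at a mean FPKM of at least 10, where CSF3 and IL11 were not tested. Smaller moves in that count included 2 with a pseudocount of 1, 4 without a filter and 4 without shNC 2. The count over the other lists (19) was 5 at a mean FPKM of at least 10, 32 with the GC correction and 12 to 23 with each sample left out. The samples were not treated as paired: deviations of same-numbered samples correlated at -0.186, -0.138 and -0.011. With the replicate block PQBP1 kept its log2 fold change of -2.04 at an adjusted p of 0.0686. Directions turned only in genes with an adjusted p above 0.4 in the analysis as reported: CCL20 was at -0.037 with quantile normalization, -0.26 with the GC correction with or without the block, and -0.13 to 0.28 with each sample left out; TNIP1 was at 0.011 with the GC correction with or without the block; and with each sample left out CXCL3 ranged from -0.33 to 0.16, TNFAIP2 from -0.14 to 0.38 and SOD2 from -0.12 to 0.17. The cause of these changes was not tested. Depth, and so the precision of genes near an FPKM of 1, is unknown.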
